A study of Mus musculus with 9 samples.

Results

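Pentanoate-treated C2C12 cells were compared with control C2C12 cells by RNA-seq, using 6 of the 9 libraries of the series. C2C12 is an established line of mouse myoblasts, labelled wild type, whose cells can fuse into muscle fibres. One group had received 750 µM pentanoate for 48 h after the cells had attached, the control group is labelled as control at day 2, and 3 further libraries came from cells given 750 µM butyrate for 48 h. The labels name no vehicle for the controls. All cells were grown in DMEM with fetal bovine serum. Each group had 3 libraries, numbered 1 to 3, and whether each came from a culture of its own is not stated, so every p-value below reflects variation among these libraries that may be technical.

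Pentanoate, also called valerate, is a short-chain fatty acid made by gut bacteria, and its chain is longer than that of butyrate. Short-chain fatty acids enter cells through monocarboxylate transporters. They can be activated to acyl-CoA and oxidised in mitochondria, and butyrate and pentanoate are also known to inhibit class I histone deacetylases, enzymes that remove acetyl groups from histones and so tend to keep genes silent. Deacetylase inhibition is known to switch on neuronal genes in cells that are not neurons, many of which are held silent by the repressor REST with its deacetylase corepressors. The title of the series names myogenic effects of the acids as its question.

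Total counts were 19305981, 18192492 and 18041090 in the pentanoate libraries and 17317580, 18102783 and 15829262 in the control libraries. Of 18 markers of C2C12 myoblasts none was at 0, and they summed to 1796 to 2238 CPM (counts scaled to library size) with pentanoate and to 1983 to 2358 CPM in control. Control 3 stood apart, with 3.95% of its counts from the mitochondrial chromosome, against 1.79% to 2.22% in the pentanoate libraries and 2.32% and 1.97% in controls 1 and 2. Libraries with the same number deviated together from their group means, and so a second fit held the replicate number as a block. Results of this fit are given where they differ.

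Pentanoate raised far more genes than it lowered. Of 14066 genes tested, 113 (0.803%) were called at an adjusted p under 0.05 in edgeR's quasi-likelihood test, 110 higher (0.782%) and 3 lower (0.0213%) than in control. The fit with the replicate block called all 113 again and 514 in all (3.65%), 423 higher (3.01%) and 91 lower (0.647%). At least a 2-fold rise was seen in 72 of the 110 genes, and the fitted log2 changes of the 110 ran from 0.49 to 3.77 with a median of 1.16. In all 113 genes the pentanoate and control libraries did not overlap, as was the case for 18.5% of all genes tested.

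Most of the rises were in genes with few counts in control cells. Called genes made up 1.44% of genes below 1 CPM in control and 1.7% of genes from 1 to 10 CPM, but 0.516% of those from 10 to 100 CPM and 0.0822% of those at 100 CPM or more. Of the 110 genes that rose, 22 averaged under 1 CPM in control and 36 at least 10 CPM. The control libraries alone would not have passed 19 of the 110 through the filter on low counts, so these could be tested only because they were higher with an acid. Among the genes that the controls alone would have passed, 0.717% rose, and 2.87% with the block. Whether list members that rose pass in this way is given below for most of the lists that held rises. The background for the full counts of each list is 0.782% higher, or 3.01% with the block. Protein-coding genes were 111 of the 113 calls and 12088 of the genes tested.

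**Figure D1:**
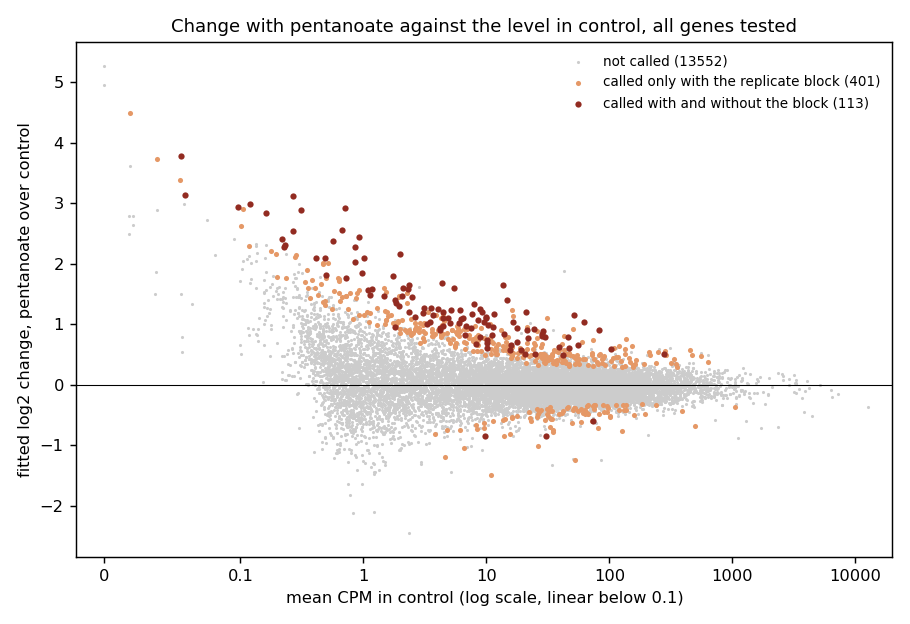
Each point is 1 of the 14066 genes tested, with its mean CPM in control on the x axis (log scale, linear below 0.1) and its fitted log2 change, pentanoate over control, on the y axis. Dark points are the 113 genes called with and without the replicate block, 110 of which lie above 0, and orange points are those called only with the block.

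How many genes were called depended on which libraries entered the fit. Leaving out 1 library at a time gave 27 to 139 calls, 27 without pentanoate 3 and 139 without control 3. All 113 genes kept their sign in each of these 6 fits, and 24 of them kept the call in all 6. With the 6 pentanoate and control libraries alone, where the spread is estimated from these groups, 25 genes were called, all higher and all among the 113. Without control 3 the 139 calls were 0.966% of the genes tested there, 135 higher (0.938%) and 4 lower (0.0278%). With the block and control 3 left out, 1759 genes were called, 1118 higher and 641 lower, and 112 of the 113 were among them.

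**Figure D2:**
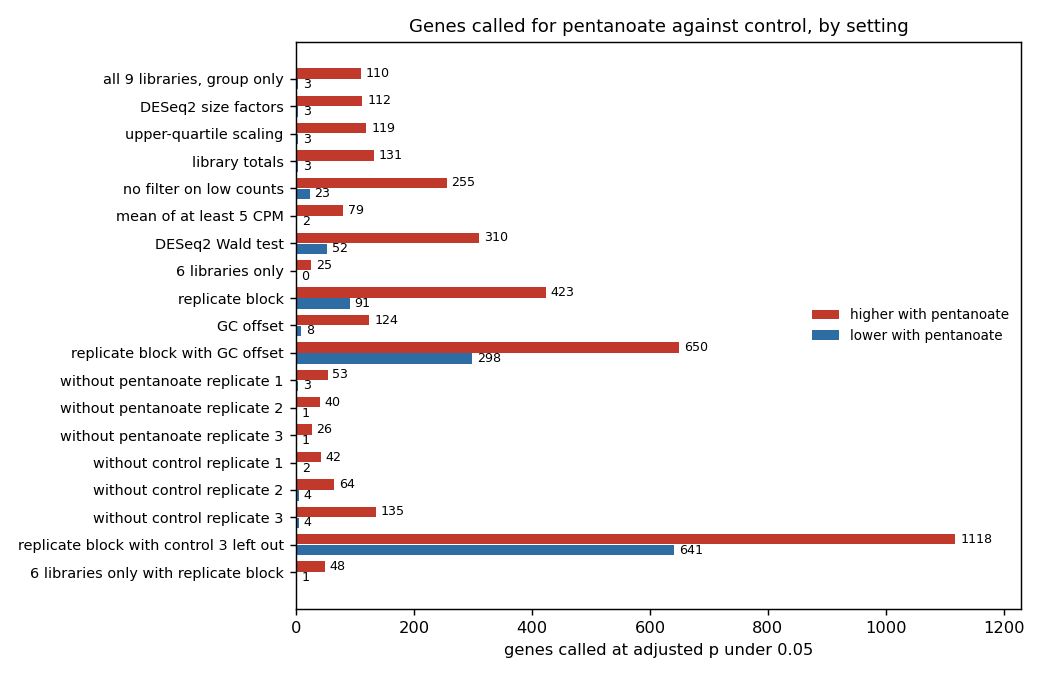
Bars give the number of genes called higher and lower with pentanoate than in control (x axis, adjusted p under 0.05) under each setting of the test (y axis). Rises outnumber falls in each of the 19 settings, from 25 against 0 with 6 libraries only to 1118 against 641 with the replicate block and control 3 left out.

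The gene with the smallest p was Stmn2 (ENSMUSG00000027500, chromosome 3, 8509360 to 8561606), which encodes stathmin 2, a microtubule regulator of growing axons. Stmn2 had 45.2, 39.5 and 44.2 CPM in pentanoate libraries 1 to 3 and 13.9, 13.3 and 13.8 CPM in the controls. The groups were far apart and each varied little. Here and below, values in parentheses with an SE are fitted log2 changes, pentanoate over control unless another pair is named. Its log2 change was 1.65 (SE 0.10, adjusted p = 7.48e-05), a call kept in all 18 other settings. Only 12 of the 113 called genes, Stmn2 among them, kept the call in all 18. Stmn2 RNA was thus also present in every control library.

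Other genes of the neuronal cytoskeleton rose as well. Prph (ENSMUSG00000023484, chromosome 15, 99055174 to 99058978) encodes peripherin, an intermediate filament of peripheral neurons. It had 4.40, 3.97 and 4.24 CPM with pentanoate and 1.22, 0.838 and 0.518 CPM in control, a log2 change of 2.27 (SE 0.26, adjusted p = 0.00565). Kif1a (ENSMUSG00000014602, chromosome 1, 93015464 to 93101951), a kinesin that carries synaptic vesicle precursors along axons, had 55.0, 53.9 and 52.1 CPM with pentanoate and 27.6, 30.4 and 28.9 CPM in control, and its rise was smaller (0.89, SE 0.09, adjusted p = 0.00565). Every pentanoate library lay above every control for both genes. Kif5c, a kinesin heavy chain, rose by 0.51 (SE 0.09, adjusted p = 0.0295). Mapt, the gene for tau, was near the limit of detection in control at 0.116, 0.168 and 0.389 CPM and had 1.40, 0.938 and 0.937 CPM with pentanoate (2.28, SE 0.42, adjusted p = 0.0361). Of 36 listed genes of the neuronal cytoskeleton and growth cone 26 were tested, and 5 rose and 0 fell, or 7 and 0 with the block, when Gap43, a growth cone protein, and the kinesin gene Kif5a were added. The median log2 change of the 26 was 0.29, where that of all genes tested was −0.01. Tested genes below 1 CPM in control had a median of 0.32, and those from 1 to 10 CPM had 0.04. List medians here and below include members that would not have passed the filter on control counts, which favours higher values. Of these 26 genes, 20 would have passed the filter on their control counts alone, and 3 of those 20 rose in either fit. Prph, Mapt, Gap43 and Kif5a would not have passed.

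Adhesion molecules and receptors of axons formed a further group. Rtn4rl2 (ENSMUSG00000050896, chromosome 2, 84871924 to 84886710) belongs to the Nogo receptors, which sense myelin proteins that inhibit axon growth. It had 4.29, 5.07 and 6.95 CPM with pentanoate and 0.466, 0.894 and 0.778 CPM in control (2.92, SE 0.33, adjusted p = 0.00565). Iglon5 (ENSMUSG00000013367, chromosome 7, 43472904 to 43490075), an immunoglobulin-like adhesion protein, had 4.40, 4.19 and 6.39 CPM with pentanoate and 0.873, 0.782 and 1.10 CPM in control (2.44, SE 0.33, adjusted p = 0.00839). L1cam (ENSMUSG00000031391, chromosome X, 73853778 to 73896105), a neural adhesion molecule, had 2.53, 3.97 and 4.02 CPM with pentanoate and 0.641, 1.06 and 0.842 CPM in control (2.03, SE 0.30, adjusted p = 0.0111). In all 3 genes the lowest pentanoate library was at more than double the highest control. Of 31 listed genes 12 were tested, 3 rose and 0 fell, and 5 rose with the block, the added ones being Rtn4rl1, a paralogue of Rtn4rl2, and Cntnap1, a protein of the node of Ranvier. The median of the 12 was 0.55. Only 6 of the 12 would have passed the filter on control counts, and 2 of these rose, 3 with the block. Rtn4rl2 would not have passed, and Rtn4rl1 and Cntnap1 would not both have passed.

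Some genes of voltage-gated channels rose. Cacna1g (ENSMUSG00000020866, chromosome 11, 94408391 to 94474198), the pore subunit of a T-type calcium channel, had 2.12, 2.76 and 2.26 CPM with pentanoate and 0.349, 0.391 and 0.194 CPM in control (2.89, SE 0.34, adjusted p = 0.00565). Every pentanoate library lay above every control, but Cacna1g would not have passed the filter on control counts. Of 30 voltage-gated calcium and sodium channel genes 12 were tested. Of these 3 rose and 6 did so with the block, among them the calcium channel gene Cacna1a. Their median log2 change was 0.87, and 7 of the 12 would have passed the filter on control counts, of which 1 rose, 3 with the block.

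Genes of regulated secretion followed. Syt7, a synaptotagmin that senses calcium in exocytosis, had 0.776, 1.16 and 1.60 CPM with pentanoate and 0.233, 0.0559 and 0.194 CPM in control (2.83, SE 0.52, adjusted p = 0.0352). Rab3b, a small GTPase of secretory vesicles, had 6.52, 6.45 and 8.43 CPM with pentanoate and 3.26, 3.30 and 3.89 CPM in control (1.04, SE 0.20, adjusted p = 0.0416). Ptprn, a receptor-like phosphatase of dense core vesicles, had 14.1, 20.2 and 15.5 CPM with pentanoate and 4.48, 8.16 and 3.76 CPM in control (1.59, SE 0.26, adjusted p = 0.0208). Pentanoate and control libraries did not overlap in these genes, although control 2 was well above the other controls for Ptprn. Of 35 listed genes of the synapse and secretory vesicles 16 were tested, 2 rose and 0 fell, and with the block Syn1, the gene for synapsin, was added. Syt7 would not have passed the filter on control counts, and of the 14 members that would have, 1 rose, 2 with the block. The median of the 16 was 0.38.

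**Figure D3:**
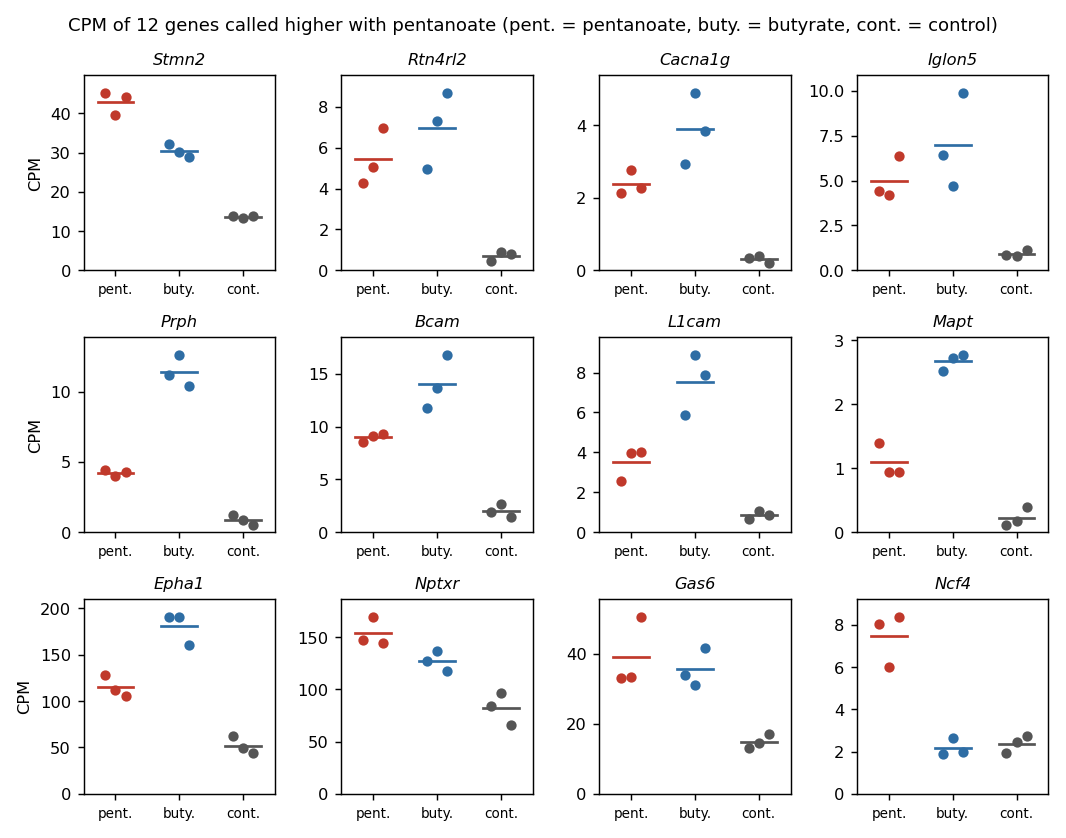
Each panel gives 1 gene, with CPM on the y axis (from 0) and the 3 libraries of pentanoate, butyrate and control cells from left to right; bars are means. All 12 genes have no overlap between pentanoate and control, and in Ncf4 alone among them do the butyrate libraries lie at the level of the controls. Rtn4rl2, Cacna1g, Prph and Mapt would not have passed the filter on control counts.

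Markers of other cell types were read alongside. Of 24 neuronal markers 11 were tested, 4 rose and 0 fell, or 5 with the block. Only 5 of the 11 would have passed the filter on control counts, of which 3 rose in either fit, and the others entered the test through their higher counts with an acid. Their summed level was 85.4 to 93.0 CPM with pentanoate and 43.0 to 45.7 CPM in control. Stmn2 alone averaged 42.9 ± 3.02 CPM with pentanoate and 13.7 ± 0.331 CPM in control (SD, n = 3 each). The markers Rbfox3, Snap25, Elavl4, Dcx, Gad1 and Gad2 had no count in any of the 6 libraries. Among markers of epithelial and endothelial cells Egfl7, a secreted protein of endothelium, rose (2.38, SE 0.32, adjusted p = 0.00824), from 7 tested of 24. Egfl7 would not have passed the filter on control counts, and of the 5 members that would have, 0 rose, or 2 with the block. With the block Flt1, a receptor of vascular growth factors, and Krt14, a keratin, were added, while Epcam, Krt5, Krt18, Cldn3, Esrp1, Kdr, Tie1 and Cldn5 had no count. The summed epithelial and endothelial markers were 52.8 to 83.3 CPM with pentanoate and 28.3 to 51.8 CPM in control. Blood cell and adipocyte markers had 0 calls among 5 and 7 tested, markers of osteoblasts and chondrocytes 0 among 13, and glial markers had 1 rise with the block among 4. The part of such cells in the rises was not tested. In bulk RNA a change in the number of cells of some kind and a change of RNA per cell cannot be told apart.

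Promoter sequences are shown for 4 of the called genes because their products stand for the groups described, with a rise for Rtn4rl2, Prph and Bcam, a laminin receptor described below, and a fall for Pdk4, a metabolic kinase. They are the 250 bases before the start of transcription given by RefSeq on GRCm38.p6, 5′ to 3′ on the gene's strand. The deposited gene coordinates start further upstream in 3 of them. The window of Bcam lies wholly inside the gene by those coordinates, and those of Rtn4rl2 and Pdk4 overlap it in part. Capitals mark matches on either strand to GGGCGG, the GC box, to CCAAT or to TATAAA, the TATA box. The E-box CAGCTG of myogenic factors, the E-box CACGTG, the AP-1 motif TGANTCA and the left and right parts of the REST element, CAGCACC on the left and GGACAGC on the right, were also searched on both strands and had no match in these windows.
Rtn4rl2 (chr2:84886693-84886942, minus strand): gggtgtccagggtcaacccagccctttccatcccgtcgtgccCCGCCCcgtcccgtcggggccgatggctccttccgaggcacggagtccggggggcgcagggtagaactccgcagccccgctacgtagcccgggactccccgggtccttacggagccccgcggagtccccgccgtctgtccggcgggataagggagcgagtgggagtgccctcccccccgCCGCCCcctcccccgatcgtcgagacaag
Prph (chr15:99054924-99055173, plus strand): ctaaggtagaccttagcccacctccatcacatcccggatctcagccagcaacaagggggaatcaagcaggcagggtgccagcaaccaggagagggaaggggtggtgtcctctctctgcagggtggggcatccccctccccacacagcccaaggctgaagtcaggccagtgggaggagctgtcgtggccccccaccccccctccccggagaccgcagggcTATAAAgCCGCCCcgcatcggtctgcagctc
Bcam (chr7:19770533-19770782, minus strand): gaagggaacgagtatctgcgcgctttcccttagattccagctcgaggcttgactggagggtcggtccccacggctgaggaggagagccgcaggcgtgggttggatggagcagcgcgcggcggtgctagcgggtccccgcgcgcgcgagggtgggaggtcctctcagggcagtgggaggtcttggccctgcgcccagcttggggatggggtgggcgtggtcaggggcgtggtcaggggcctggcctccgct
Pdk4 (chr6:5496279-5496528, minus strand): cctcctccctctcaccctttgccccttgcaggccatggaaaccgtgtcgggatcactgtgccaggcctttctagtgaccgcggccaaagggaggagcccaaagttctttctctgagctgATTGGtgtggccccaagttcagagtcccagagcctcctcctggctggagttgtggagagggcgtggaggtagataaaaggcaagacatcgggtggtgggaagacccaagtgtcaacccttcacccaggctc

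The promoter of Prph held a TATA box 31 bases before the start, and that of Rtn4rl2 held 2 GC boxes without one. Windows of 300 bases around the start were found for 9863 of the tested genes, or 70.1%, and of these windows 65.5% held GGGCGG, 39.3% CCAAT and 6.98% TATAAA, and 7.40% and 7.61% held the left and right parts of the REST element. Such matches are letters in a window and no evidence of binding. These shares describe the matched windows and not all tested genes. Windows were found for 82 of the 110 genes that rose, and with both sets under 80% matched no comparison of shares is made.

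Several rises were in genes with higher counts. Epha1 (ENSMUSG00000029859, chromosome 6, 42358487 to 42373268), a receptor of ephrins in cell contact, had 128, 112 and 106 CPM with pentanoate and 62.8, 49.1 and 44.1 CPM in control (1.15, SE 0.14, adjusted p = 0.00565). Nptxr, the neuronal pentraxin receptor, had 147, 169.6 and 145 CPM with pentanoate and 83.9, 96.2 and 66.0 CPM in control (0.91, SE 0.13, adjusted p = 0.0115). Cadm4, an immunoglobulin-like adhesion molecule, had 112, 145 and 124 CPM with pentanoate and 68.2, 73.1 and 44.5 CPM in control (1.03, SE 0.17, adjusted p = 0.0207). Control 3 was the lowest library in all 3 genes, and without it they remained called (the adjusted p of each was at most 0.00528). Clstn1, which encodes the adhesion protein calsyntenin 1, rose by only 0.51 (SE 0.09, adjusted p = 0.0267), with 383, 397 and 393 CPM with pentanoate and 279, 298 and 249 CPM in control. Its groups did not overlap.

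Further genes rose with little spread in either group. Arnt2, a transcription factor of the bHLH-PAS family, had 5.69, 6.45 and 6.06 CPM with pentanoate and 1.46, 1.79 and 2.01 CPM in control (1.79, SE 0.19, adjusted p = 0.00565). Celf5, an RNA-binding protein of the CELF family, had 6.83, 6.56 and 5.84 CPM with pentanoate and 2.27, 2.18 and 1.88 CPM in control (1.60, SE 0.20, adjusted p = 0.00565). Both groups were narrow in these genes and lay well apart. Its relative Celf4 rose by 1.26 (SE 0.20, adjusted p = 0.0207). Crabp1, which binds retinoic acid in the cytosol, had 1.03, 1.21 and 1.32 CPM with pentanoate and 0.233, 0.223 and 0.194 CPM in control (2.41, SE 0.33, adjusted p = 0.00839). It would not have passed the filter on control counts. Nptx1, a secreted neuronal pentraxin, rose by 1.33 (SE 0.24, adjusted p = 0.0352). Fbln1, a fibulin of the matrix, had 148, 141 and 173 CPM with pentanoate and 101, 92.0 and 115 CPM in control, and its rise was small (0.59, SE 0.11, adjusted p = 0.0352).

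Secreted signals and their receptors were among the genes that rose. Gas6 (ENSMUSG00000031451, chromosome 8, 13465374 to 13494490), the ligand of the TAM receptor kinases, had 33.2, 33.3 and 50.5 CPM with pentanoate and 13.0, 14.4 and 17.0 CPM in control (1.40, SE 0.19, adjusted p = 0.00839). Bcam (ENSMUSG00000002980, chromosome 7, 19756131 to 19771016), a laminin receptor of the cell surface, had 8.59, 9.10 and 9.32 CPM with pentanoate and 1.86, 2.68 and 1.43 CPM in control (2.16, SE 0.23, adjusted p = 0.00565). In both genes the groups were well apart, and pentanoate 3 was the highest library. Of 51 axon guidance genes tested 4 rose and 0 fell, 8 with the block. They were Epha1, the ephrin genes Efna2 (1.21, SE 0.18, adjusted p = 0.0127) and Efna3 (2.10, SE 0.39, adjusted p = 0.0352) and the semaphorin gene Sema3f (0.70, SE 0.10, adjusted p = 0.0114). The median of the 51 was 0.22, and of the 45 that would have passed on control counts 3 rose, 5 with the block.

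In the Wnt pathway, Wnt6, a ligand, and Dkk2, a secreted Wnt antagonist, both rose. Wnt6 had 37.0, 36.6 and 27.7 CPM with pentanoate and 21.8, 15.9 and 11.5 CPM in control (1.04, SE 0.20, adjusted p = 0.0454), and Dkk2 had 3.10, 3.31 and 3.97 CPM with pentanoate and 0.757, 0.782 and 1.36 CPM in control (1.85, SE 0.29, adjusted p = 0.0181). With the block 8 of 35 tested members rose and 1 fell, where 3.01% of all genes rose and 0.647% fell. Those added were the ligands Wnt4 and Wnt5a, the antagonist Sfrp1, the feedback genes Axin2 and Nkd2 and the coreceptor Lrp5, and the member that fell was the ligand Wnt10b (−0.42, SE 0.09, adjusted p = 0.0435). The median of the list was 0.18, and all members that rose would have passed the filter on control counts.

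The lists of TGF-beta, IGF, collagen, integrin and laminin genes held calls only in the fit with the block. Of the TGF-beta and activin genes 0 of 31 were called without it and 5 rose with it. One was Inhbb, an activin subunit, at 266, 267 and 174 CPM with pentanoate and 193, 169 and 92.0 CPM in control. In this gene the groups overlapped, yet the pentanoate library was the higher in each of the numbered pairs, and the log2 change was 0.68 with the block (SE 0.10, adjusted p = 0.00823) but had an adjusted p = 0.328 without it. Of the IGF genes 0 of 20 were called without the block and 4 rose with it, among them Igfbp2, a binding protein of the growth factors, at 807, 733 and 486 CPM with pentanoate and 575, 524 and 254 CPM in control (0.63, SE 0.09, adjusted p = 0.00723 with the block, and adjusted p = 0.432 without it). Of 28 collagen genes 0 were called without the block and 6 rose with it, and of 32 integrin and laminin genes 0 and 4. Of all genes tested 3.01% rose with the block. All rises in these lists would have passed the filter on control counts, except among the IGF genes, where 3 of 4 would. Lamb3, a laminin chain, had 71.6, 82.7 and 47.0 CPM with pentanoate and 37.6, 42.4 and 13.7 CPM in control (1.17, SE 0.17, adjusted p = 0.00714 with the block). As in Igfbp2, both number 3 libraries lay below the others of their group.

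Genes of immune defence rose in small number. Ncf4 (ENSMUSG00000071715, chromosome 15, 78244801 to 78262580), a cytosolic subunit of the phagocyte NADPH oxidase, had 8.02, 6.01 and 8.38 CPM with pentanoate and 1.92, 2.46 and 2.72 CPM in control (1.66, SE 0.23, adjusted p = 0.00839). Bst2, an antiviral membrane protein, had 7.66, 7.89 and 8.76 CPM with pentanoate and 4.13, 3.63 and 3.18 CPM in control (1.15, SE 0.16, adjusted p = 0.00875). H2-K1 and H2-Q4 are class I histocompatibility genes and rose by 0.91 (SE 0.18, adjusted p = 0.0471) and 1.25 (SE 0.17, adjusted p = 0.00839). Genes of this family are near-identical, and the counting may have split their reads, which makes the value of each uncertain. With the block Tap1 and Tap2, the peptide transporter of antigen presentation, rose too, giving 4 of 27 tested members of the interferon and antigen presentation list and 2 without it. Of all genes tested 3.01% rose with the block and 0.782% without it. The members that rose would all have passed the filter on control counts. The median of the 27 was 0.04. Of 20 inflammatory mediators tested, the chemokine gene Cx3cl1 rose (0.63, SE 0.10, adjusted p = 0.0207). With the block Csf1, a growth factor of macrophages, and Il33 were added, and Ptgs2, an enzyme of prostaglandin synthesis, fell (−0.63, SE 0.14, adjusted p = 0.0375). The mediators that rose would also all have passed the filter on control counts.

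Among metabolic genes, a pair of enzymes of purine nucleotides rose and a kinase of pyruvate dehydrogenase, described below, fell. Adssl1 (ENSMUSG00000011148, chromosome 12, 112620045 to 112641360) encodes the muscle adenylosuccinate synthase of the purine nucleotide cycle. It had 41.7, 46.1 and 50.8 CPM with pentanoate and 23.5, 26.1 and 23.1 CPM in control (0.93, SE 0.11, adjusted p = 0.00565). Ampd3, an AMP deaminase of the same cycle, had 63.4, 59.3 and 56.1 CPM with pentanoate and 41.6, 44.2 and 41.1 CPM in control (0.49, SE 0.09, adjusted p = 0.0384). Both genes were higher in every pentanoate library than in any control. Of 21 genes of purine nucleotides and AMP 2 rose, with a median of 0.16, and with the block Nt5e, an ecto-nucleotidase that makes adenosine, was the added one of 3 (0.88, SE 0.16, adjusted p = 0.0214). These 3 would all have passed the filter on control counts, and 0.782% of all genes rose, or 3.01% with the block. Mogat2, a monoacylglycerol acyltransferase, rose by 1.46 (SE 0.18, adjusted p = 0.00565), and Hlcs, the enzyme that attaches biotin to carboxylases, by 0.68 (SE 0.13, adjusted p = 0.0384). Of 31 genes of short-chain acyl-CoA and propionate metabolism 0 were called, with a median of 0.02, and with the block Acss2 (0.45, SE 0.09, adjusted p = 0.0232) and Acsf2 (0.56, SE 0.11, adjusted p = 0.0312), both acyl-CoA synthetases, rose. Slc16a1, the transporter of monocarboxylates, had 169, 175 and 147 CPM with pentanoate and 140.0, 145 and 146 CPM in control, and its log2 change of 0.19 had an interval of −0.05 to 0.43 (adjusted p = 0.464).

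Only 3 genes fell in the test without the block. Aoc3 (ENSMUSG00000019326, chromosome 11, 101330605 to 101341938), an amine oxidase of the cell surface, had 17.4, 15.3 and 18.7 CPM with pentanoate and 32.0, 30.8 and 29.1 CPM in control (−0.84, SE 0.12, adjusted p = 0.00839). Pdk4 (ENSMUSG00000019577, chromosome 6, 5483351 to 5496309), the kinase that switches off pyruvate dehydrogenase, had 51.4, 49.4 and 46.7 CPM with pentanoate and 70.3, 71.9 and 80.4 CPM in control (−0.59, SE 0.09, adjusted p = 0.0116). Scfd2 (ENSMUSG00000062110, chromosome 5, 74204816 to 74531759), a protein of the Sec1 family, had 4.50, 5.79 and 6.17 CPM with pentanoate and 9.03, 10.3 and 10.0 CPM in control (−0.84, SE 0.16, adjusted p = 0.0476). The groups were apart in all 3 genes. Over the 6 omissions of a library the adjusted p ran from 0.00678 to 0.0545 for Aoc3, which lost its call without pentanoate 2, and from 0.00752 to 0.0784 for Pdk4, which lost it without pentanoate 2 and without pentanoate 3. Scfd2 lost its call in all 6, with an adjusted p of 0.0637 to 0.175. With the block Pdk1, another kinase of pyruvate dehydrogenase, and Dld, a subunit of the complex, fell too, so 3 of 31 genes of pyruvate dehydrogenase and the citric acid cycle were lower and 0 higher, with a median of −0.05. Of all genes tested 0.647% fell with the block.

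The block brought out further falls, most of them small. The 91 genes lower with it had a median log2 change of −0.48, and 4 of them fell by at least 2-fold. Rgcc (ENSMUSG00000022018, chromosome 14, 79288756 to 79301645), a regulator of the cell cycle, had 4.45, 2.48 and 4.74 CPM with pentanoate and 10.0, 8.21 and 14.6 CPM in control. Its libraries did not overlap, and it fell by 1.50 with the block (SE 0.16, adjusted p = 0.00193), with an adjusted p = 0.0563 without it. Aspn, a small proteoglycan of the matrix, had 18.8, 6.34 and 40.7 CPM with pentanoate and 24.7, 14.5 and 118 CPM in control (−1.06, SE 0.19, adjusted p = 0.0169 with the block). Here the libraries of number 3 were far above the others in both groups, and without control 3 the fitted log2 change in the fit without the block was 0.17 (SE 0.95, adjusted p = 0.962). C1qtnf3, a secreted protein related to complement C1q, and Cilp, a cartilage matrix protein, fell by 0.83 (SE 0.12, adjusted p = 0.00782) and 1.05 (SE 0.21, adjusted p = 0.0276) with the block, and their groups overlapped. Dock4, an activator of small GTPases, fell by 0.84 with the block (SE 0.16, adjusted p = 0.0205) with no overlap.

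**Figure D4:**
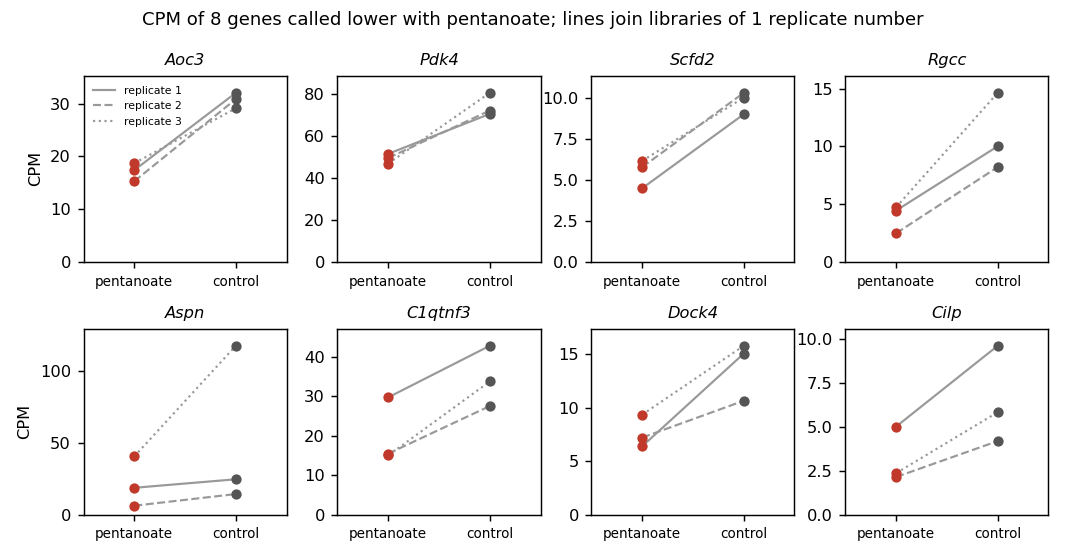
Each panel gives the CPM (y axis, from 0) of 1 gene in the 3 pentanoate and the 3 control libraries, and lines join libraries of the same number. Every line runs lower on the pentanoate side, also in Aspn, C1qtnf3 and Cilp, where the groups overlap and the fall is called only with the block.

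Some falls with the block, which were 0.647% of all genes, lay in gene families. Of 82 cytosolic ribosomal protein genes 3 fell, Rps12, Rps21 and Rps27, and of 77 mitochondrial ribosomal protein genes Mrpl45 did. Ribosomal protein genes have many near-identical pseudogenes, so their values are uncertain. Of 13 mitochondrially encoded protein genes mt-Nd6 fell (−0.58, SE 0.13, adjusted p = 0.0443), at 306, 244 and 383 CPM with pentanoate and 376, 316 and 796 CPM in control, where control 3 was far above the rest. The median of the 13 was −0.51 with all libraries and −0.15 without control 3. Sirt1, a deacetylase that depends on NAD, was the single call among 7 sirtuins (−0.56, SE 0.11, adjusted p = 0.0312).

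Muscle genes were read against the background, in which 0.782% of all genes were called higher and 0.0213% lower, and 3.01% and 0.647% with the block. Of 17 myoblast identity genes, 19 late regulators and fusion genes, 26 sarcomere genes and 19 smooth muscle and SRF target genes tested, 0 were called, and 0 with the block. In either fit a count of 0 in lists this short is near the background and is no result about muscle genes. When control 3 was left out, 1 identity gene rose. The medians were −0.10, −0.03, −0.05 and −0.02 with all libraries, and −0.13, −0.02, −0.21 and −0.10 without control 3. Myod1, the factor that sets muscle identity, had 84.5, 87.0 and 68.8 CPM with pentanoate and 85.7, 96.7 and 70.6 CPM in control, and its log2 change of −0.07 had an interval of −0.45 to 0.30 (adjusted p = 0.874). Myog, the gene of myogenin, ran from 1.10 to 5.28 CPM with pentanoate and from 1.56 to 6.35 CPM in control, with an interval of −1.69 to 1.03 for its change (adjusted p = 0.842). Myog thus varied more among the libraries of a group than between the groups, and a change of either sign is within its interval. Myf5, an early myogenic factor, had 34.8, 37.0 and 41.0 CPM with pentanoate and 27.1, 25.0 and 37.4 CPM in control (0.34, SE 0.14, adjusted p = 0.341). In the same fit Myod1 was higher with pentanoate than with butyrate by 0.82 (SE 0.17, adjusted p = 0.0304). Among 17 early regulators and inhibitors of myogenesis Id3, an inhibitor of such factors, rose with the block (0.33, SE 0.07, adjusted p = 0.0435). With the block and a correction for GC content, 2 genes fell in each of the sarcomere and smooth muscle lists and 1 among the late regulators, and 1 identity gene rose.

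Genes of the cell cycle were read next. Of 45 genes of S phase and 51 of G2 and M phase 0 were called, with or without the block, and the medians were 0.05 and −0.0035. Of all genes 0.782% were called higher and 0.0213% lower, and 3.01% and 0.647% with the block. Without the block the count of 0 is near this background, and in neither fit is it a result about the cell cycle. With the block and a correction for GC content 2 S phase genes and 1 G2 and M phase gene rose, where 4.62% of all genes did. Mki67, a marker of dividing cells, had 516, 567 and 543 CPM with pentanoate and 426, 495 and 626 CPM in control (0.07, SE 0.13, adjusted p = 0.836). Its controls were more spread than its pentanoate libraries. Cdkn1a, an inhibitor of cyclin-dependent kinases, had 164, 166 and 136 CPM with pentanoate and 174, 169 and 108 CPM in control (0.05, SE 0.19, adjusted p = 0.937). Ccnd1, the gene of cyclin D1, rose with the block (0.50, SE 0.07, adjusted p = 0.0065), with 249, 351 and 298 CPM with pentanoate and 170.1, 246 and 222 CPM in control, and had an adjusted p = 0.261 without it.

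None of 11 genes for class I and II deacetylases was called in either fit, with a median of 0.11. Hdac1, a class I enzyme, had 85.5, 89.5 and 95.5 CPM with pentanoate and 70.8, 80.0 and 79.1 CPM in control, and the interval of its log2 change was 0.02 to 0.45 (adjusted p = 0.32). For Hdac2, its close relative, the interval was −0.36 to 0.08 (adjusted p = 0.545). Of 30 genes of REST and its corepressors 0 were called, and Rest itself had 81.3, 79.0 and 70.8 CPM with pentanoate and 70.3, 71.2 and 58.1 CPM in control (0.21, SE 0.10, adjusted p = 0.387). Among 19 genes commonly raised by deacetylase inhibitors 0 were called in either fit, with a median of 0.12. One of them, H1f0, a linker histone, had 543, 596 and 606 CPM with pentanoate and 495, 518 and 418 CPM in control (0.29, SE 0.10, adjusted p = 0.261). Without control 3, 1 of the 19 fell. With the block and a correction for GC content 2 of the 19 rose and 1 fell, and 2 of the 30 REST and corepressor genes rose. Of all genes, 4.62% rose and 2.12% fell in that fit. At a background of 0.782% higher, or 3.01% with the block, counts of 0 in lists this short are no result about these genes.

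**Figure D5:**
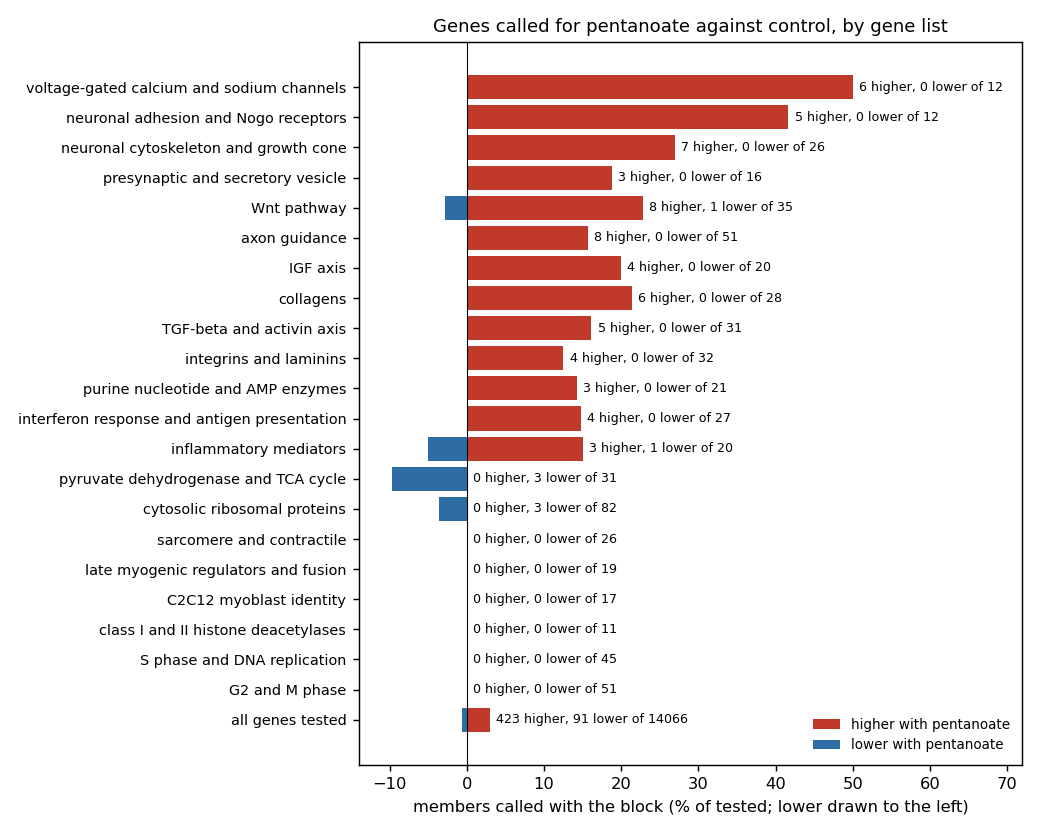
Bars give the share of tested members of 21 of the 65 gene lists called higher (right) or lower (left) with pentanoate than in control in the fit with the replicate block, in percent, with the counts beside them. Channel genes have 6 rises of 12 and neuronal adhesion genes 5 of 12. Among members that pass the filter on control counts these are 3 of 7 and 3 of 6. The muscle, deacetylase and cell cycle lists shown have 0, which in lists this short is no result about them. All genes tested are in the last row with 423 and 91 of 14066.

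The levels with butyrate were set beside those with pentanoate in the same fit, since both acids share the control libraries. Between the acids 481 genes (3.42%) were called, and 1483 (10.5%) with the block. Of the 110 genes that rose with pentanoate, 20 were lower with pentanoate than with butyrate and 2 were higher (background 1.61% lower and 1.81% higher among all genes), and with the block 35 were lower and 3 higher (background 4.42% and 6.12%). The pentanoate libraries that chose these genes enter both comparisons, which favours a higher value with pentanoate. Prph had 4.40, 3.97 and 4.24 CPM with pentanoate and 11.2, 12.6 and 10.4 CPM with butyrate, a difference of −1.44 on the log2 scale (SE 0.21, adjusted p = 0.0073). Mogat2 had 5.12, 5.46 and 6.50 CPM with pentanoate and 12.5, 14.6 and 15.7 CPM with butyrate (−1.32, SE 0.16, adjusted p = 0.00356). Both genes were lower in each pentanoate library than in any butyrate library.

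The 2 genes higher with pentanoate than with butyrate were Ncf4 and Stmn2. Ncf4 had 8.02, 6.01 and 8.38 CPM with pentanoate and 1.88, 2.66 and 1.99 CPM with butyrate (1.78, SE 0.23, adjusted p = 0.00449). Stmn2 had 45.2, 39.5 and 44.2 CPM with pentanoate and 32.2, 30.3 and 28.9 CPM with butyrate (0.50, SE 0.10, adjusted p = 0.0204). In Ncf4 the difference was large and in Stmn2 it was modest, with no overlap in either. Of the 3 genes that fell, Aoc3 was higher with pentanoate than with butyrate, where it had 3.35, 3.08 and 3.55 CPM (2.36, SE 0.13, adjusted p = 3.28e-05). For Rtn4rl2 the interval of the difference to butyrate was −0.95 to 0.23 (adjusted p = 0.558, and 0.2 with the block). Bcam was lower in each pentanoate library than in any butyrate library, where it had 11.8, 13.7 and 16.8 CPM, and this difference was called only with the block (log2 difference −0.65, adjusted p = 0.11, and 0.0463 with the block).

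The genes that rose were richer in G and C than most. Their longest transcripts had a median GC content of 55.6%, against 49.6% over all genes tested, and 44.6% for the genes that fell with the block. Without control 3 the genes that rose had a median of 55.1%. A GC correction as an offset of each library gave 132 calls, 124 higher and 8 lower, among them 95 of the 113, and with the block 948 calls (6.74%), 650 higher (4.62%) and 298 lower (2.12%), among them all 113. The share of rises was thus 97.3% of the calls without correction or block and 68.6% with both. Non-coding calls were the long RNA Miat, at 2.43, 2.92 and 1.98 CPM with pentanoate and 0.175, 0.503 and 0.130 CPM in control (3.12, SE 0.41, adjusted p = 0.00772), and the transcript 6530402F18Rik (0.82, SE 0.16, adjusted p = 0.0422), and the use of strand in the counting is not stated. Miat would not have passed the filter on control counts.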

How the data were processed

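RNA was sequenced from C2C12 cells given pentanoate, butyrate or neither, with 3 libraries per group. The deposited table holds the authors' counts per gene, not normalized, for 54697 lines on GRCm38 (mm10), per the submitters' processing notes. For the aligner, the counter and the use of strand, the sources used here give nothing. The 165 lines without an Ensembl identifier, 0.0918% to 0.107% of the counts, were kept, and 110 of them were among the genes tested.

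In edgeR 4.0.16 (R 4.3.3) genes were filtered with filterByExpr (a cutoff of about 0.577 CPM), scaled by TMM and tested with the quasi-likelihood test in 1 fit of all 9 libraries. Benjamini-Hochberg adjustment ran over 14066 genes, and an adjusted p-value under 0.05 made a call. Fold changes are pentanoate over control on the log2 scale, intervals are 95% intervals, and standard errors are the log2 change over the root of F, an approximation. The deposited counts set the precision, and intervals cover the spread among these libraries.

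Same-numbered libraries of different groups deviated together from their group means (r of 0.20 to 0.41 in 9 pairs, over the criterion of 0.1, against −0.33 to 0.013 in 18 other pairs), so the numbers were taken to pair the libraries and a fit with the number as a block is given beside. Alternatives were DESeq2 1.42.0, other scalings and filters, a GC offset and the omission of each library. The scripts were tested on simulated data. Figures were drawn with matplotlib 3.10.9.

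The gene lists and the genes named were chosen with earlier results of these data known. Named genes were those with the largest rises and all falls, those with the smallest p, the largest rises among genes of at least 20 CPM, the largest changes with the block, the leading called genes of each list, the largest differences to butyrate and a set of muscle, cycle and deacetylase genes, of which a part is printed. The largest rises, the falls and the largest changes with the block were taken only from genes whose pentanoate and control libraries did not overlap. For genes chosen in this way the lack of overlap is no result.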

Additional observations from a re-analysis of the deposited data

How the results depend on the processing

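Both the number of genes called and the share of rises among them depended on the setting. Rises were 100% of the calls with the 6 libraries alone and 63.6% with the block and control 3 left out. They outnumbered falls in every setting. Without a filter on low counts 278 genes were called (255 higher, 23 lower), with DESeq2's Wald test 362 (310 and 52), with the 6 pentanoate and control libraries alone 25 (25 and 0), and with these and the replicate block, a setting chosen after seeing the data, 49 (48 and 1). At an unadjusted p under 0.05 the 6 libraries alone gave 1312 genes in both directions together. The replicate block, in which the numbers pair the libraries, gave 514 (423 and 91), the block with a GC offset 948 (650 and 298), and the block with control 3 left out 1759 (1118 and 641). The GC offset alone raised the falls to 8. Leaving out 1 library at a time gave 27 to 139 calls, 26 to 135 of them higher and 1 to 4 lower. DESeq2's size factors, upper-quartile scaling, library totals and a minimum mean of 5 CPM gave 81 to 134 calls. Against butyrate, where the alternatives were chosen after seeing the data, 481 genes were called, 319 with a mean of at least 5 CPM, 951 with DESeq2, 871 with the GC offset, 1483 with the block, 2635 with both, 4632 with the block and control 3 left out, and 75 to 1469 when 1 library was left out. Values that changed sign were those of genes not called without the block. With 1 library left out at a time the log2 change of Aspn ran from −2.05 (without pentanoate 3) to 0.17 (without control 3), that of Myod1 from −0.18 to 0.041, being 0.011 without pentanoate 3, and that of Myog from −0.94 to 0.20, being 0.083 without pentanoate 2. That of Mki67 ran from −0.058 (without control 1) to 0.24, and that of Cdkn1a from −0.14 (without control 3) to 0.15. Cdkn1a had −0.018 with the GC offset, −0.0095 with the block and GC offset and −0.027 with the block and control 3 left out, and Hdac2 had 0.024 with the GC offset, with or without the block. The cause was not tested. No detection limit by count level was measured.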
